A study of Mus musculus with 2 samples.

Results

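Inbred C57BL/6 mice exist as separately bred substrains, and a small number of genes are known to carry coding or expression variants between the C57BL/6J and C57BL/6N lines. A set of 8 such genes was examined here in RNA from sorted bone marrow haematopoietic stem cells. The genes are Nnt, Ide, Fgfbp3, Entpd4, Wdfy1, Nlrp12, Cyfip2 and Crb1. They were chosen from known substrain variants after FPKM values of some of them in these same libraries had been seen, so every difference below is a description and carries no test. All 8 were found among the 23961 gene symbols of the deposited tables, and 6 of them reached 1 FPKM or more in at least 1 library (FPKM, fragments per kilobase of transcript scaled to library size). Nlrp12 and Crb1 were under 1 FPKM in both libraries.

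The data are 2 RNA-seq libraries of poly(A)-selected RNA from untreated mice with the strain label C57BL/6. The first is labelled Per2def, from Per2-deficient mice, and the second is labelled Per2wt, from wild-type mice. Period 2, the product of Per2, is a repressor in the circadian clock. Both kinds of mice were kept in 12 hour light and 12 hour dark cycles. The sources used here do not give the substrain, age, sex, number of animals per library, sort markers or Per2 allele. Each genotype is represented by a single library, so no replicate error exists and a difference describes the libraries alone. The question asked of the 8 genes is whether their levels give a sign of different backgrounds, and with these files it can be answered only as levels, not as alleles.

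A few facts of the libraries bear on every value. In the library labelled Per2def, Per2 itself (GRCm38 chromosome 1, bases 91415982 to 91459324) had 6.16 FPKM, and in the library labelled Per2wt 1.96 FPKM, a direction that goes against the label if the allele removes the transcript. Of 8 listed stem and progenitor markers 7 were measured, 3 higher and 4 lower in Per2def, and the list summed to 213 FPKM in Per2def and 217 FPKM in Per2wt. Slamf1, a defining stem cell marker, was low in both, at 0.522 FPKM in Per2def and 0.245 FPKM in Per2wt. Of 15 markers of other blood cells 12 were measured, 10 of them were higher in Per2def, and the list summed to 1037 FPKM in Per2def and 720.4 FPKM in Per2wt. The neutrophil genes S100a8, Camp and Elane were among the markers that were higher, at 266.5, 72.0 and 57.5 FPKM in Per2def against 108.8, 28.9 and 27.1 FPKM in Per2wt. The 2 lower markers were the haemoglobin gene Hba-a1, at 114.5 FPKM in Per2def and 193.0 FPKM in Per2wt, and the platelet gene Pf4. In bulk RNA, more cells of a type and more RNA per cell cannot be told apart, and the part of these markers in the values below was not tested. Over 3232 genes under 0.5 FPKM, Per2def values stood most often at 0.805 of the Per2wt value, the ratio that equal read numbers give when Per2def is sequenced 1.24 times as deeply. Absolute depth is unknown, so no counting interval can be given.

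The 8 genes have different roles and are grouped by their known variation between substrains. Nnt encodes the nicotinamide nucleotide transhydrogenase of the inner mitochondrial membrane, which uses the proton gradient to make NADPH, and C57BL/6J mice lack a run of its internal exons. Ide encodes insulin-degrading enzyme, a zinc metallopeptidase, and Fgfbp3 encodes a secreted carrier of fibroblast growth factors. A chromosome 19 segment with Ide and Fgfbp3 is known to vary in copy number among C57BL/6J animals. Entpd4 encodes a nucleoside diphosphatase of internal membranes, and Wdfy1 an endosomal protein that helps recruit the adaptor TRIF to Toll-like receptors. The other 3 are known for coding variants. Cyfip2, a subunit of the actin-regulating WAVE complex, carries a missense change in C57BL/6N, Nlrp12, a sensor protein that dampens inflammatory signalling, carries a missense change in C57BL/6J, and Crb1, a polarity protein of the retina, carries a frameshift in C57BL/6N.

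Of the 6 measured genes, 5 differed between the libraries by 1.62-fold to 1.85-fold and Cyfip2 differed by 1.02-fold. Nnt and Wdfy1 were higher in Per2def, whereas Ide, Entpd4 and Fgfbp3 were lower. None of the 6 reached a 2-fold difference on the log2(FPKM + 1) scale in either direction, where 1.25% of the 11121 measured genes were higher in Per2def by 2-fold or more and 0.998% were lower by as much. These shares stand for 139 and 111 genes, of which 26 and 16 were left without small and predicted RNAs, while the 6 members are protein-coding genes. At 1.5-fold on that scale 2 members were higher, Nnt and Wdfy1, beside 2.61% of all genes at 1 FPKM, and 2 were lower, Ide and Entpd4, beside 1.7% of all genes. All these shares are the background of a set whose choice drew on the same contrast, and nothing is read from them. The median size of the log2 difference, sign ignored, was 0.65 over the 6 members and 0.12 over all 11121 genes. With signs kept, the median was −0.27 over the members and 0.05 over all genes. These medians are likewise those of a set whose choice drew on the same contrast, and nothing is read from them.

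**Figure D1:**
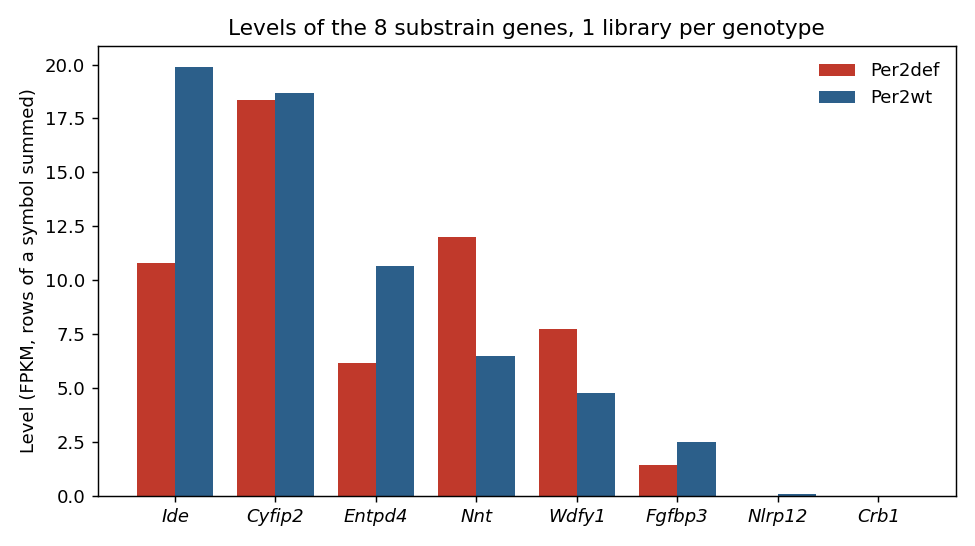
Level in FPKM of each of the 8 genes in the Per2def library (red, left bar) and the Per2wt library (blue, right bar), 1 library each, with no error bars because there are no replicates. Nnt stood at 12.0 FPKM in Per2def and 6.49 FPKM in Per2wt, Ide at 10.8 FPKM in Per2def and 19.9 FPKM in Per2wt, and Cyfip2 at 18.3 FPKM in Per2def and 18.7 FPKM in Per2wt.

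The order of levels was not the same in the 2 libraries. In Per2def, Cyfip2 was highest at 18.3 FPKM, followed by Nnt at 12.0, Ide at 10.8, Wdfy1 at 7.75, Entpd4 at 6.16 and Fgfbp3 at 1.42 FPKM. In Per2wt, Ide was highest at 19.9 FPKM, followed by Cyfip2 at 18.7, Entpd4 at 10.6, Nnt at 6.49, Wdfy1 at 4.78 and Fgfbp3 at 2.47 FPKM. Nnt thus ranked above Ide in Per2def and below it in Per2wt. The place of Entpd4 rests on summing 2 rows of the same value. A single row had 3.08 FPKM in Per2def and 5.32 FPKM in Per2wt, below Nnt in both. Without replicates it cannot be said which neighbours in these orders differ beyond their error.

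Sequences around RefSeq starts are shown for Ide and Fgfbp3, the members whose locus is treated in most detail, and for Btaf1, which starts close to Fgfbp3. Each is the RefSeq window of GRCm38.p6 from 250 bases before to 50 bases after the start, 5′ to 3′ on the strand of the gene, and capitals mark CCAAT or its reverse complement. The windows lie at chr19:37334495-37334794 (Ide, minus strand), chr19:36919550-36919849 (Fgfbp3, minus strand) and chr19:36925829-36926128 (Btaf1, plus strand).
Ide: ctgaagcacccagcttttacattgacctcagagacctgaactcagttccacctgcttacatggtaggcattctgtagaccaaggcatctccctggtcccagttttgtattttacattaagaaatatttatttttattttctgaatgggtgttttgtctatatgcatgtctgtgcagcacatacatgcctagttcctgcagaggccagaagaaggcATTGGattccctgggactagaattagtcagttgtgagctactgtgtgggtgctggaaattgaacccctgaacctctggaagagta
Fgfbp3: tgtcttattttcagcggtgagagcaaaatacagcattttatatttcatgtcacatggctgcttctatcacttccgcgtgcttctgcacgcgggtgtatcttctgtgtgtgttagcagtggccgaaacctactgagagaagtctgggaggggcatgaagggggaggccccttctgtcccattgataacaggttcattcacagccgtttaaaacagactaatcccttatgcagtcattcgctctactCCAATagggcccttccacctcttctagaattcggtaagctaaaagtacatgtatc
Btaf1: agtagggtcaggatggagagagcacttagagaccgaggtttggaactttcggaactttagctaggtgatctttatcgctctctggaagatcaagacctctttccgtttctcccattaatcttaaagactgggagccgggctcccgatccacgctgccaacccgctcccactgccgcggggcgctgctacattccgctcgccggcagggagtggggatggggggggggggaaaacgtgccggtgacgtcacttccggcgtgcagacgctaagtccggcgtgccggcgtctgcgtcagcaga
The Ide and Fgfbp3 windows each hold CCAAT once on either strand, as do 37.4% of 32851 RefSeq windows with at least 1 match, and the Btaf1 window holds none. Neither the clock E-box letters CACGTG nor the D-box letters TTATGTAA occur in these 3 windows on either strand. They occur in 7.15% and 0.938% of all windows. The GC content was 44.0% for Ide and 46.7% for Fgfbp3, under the median of 52.7% over all windows, and 60.0% for Btaf1. The GENCODE M21 gene of Ide begins at 37337852, upstream of the RefSeq window. The window thus lies inside that gene and does not hold its annotated start, and the values given for Ide describe the window alone. RefSeq windows were matched for 5 of the 8 members (Ide, Fgfbp3, Nlrp12, Cyfip2 and Crb1). Of these, only the Crb1 window holds the E-box letters, 1 time at position −194 from the start, and none holds the D-box letters.

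Ide and Fgfbp3 were both lower in Per2def, while the genes between and around them were not lower to the same degree. Ide (ENSMUSG00000056999.15, chromosome 19, 37268743 to 37337852, minus strand) stood at 10.8 FPKM in Per2def and 19.9 FPKM in Per2wt, 1.84-fold lower (log2 difference −0.82). Fgfbp3 (ENSMUSG00000047632.10, chromosome 19, 36917550 to 36919615, minus strand) stood at 1.42 FPKM in Per2def and 2.47 FPKM in Per2wt, 1.73-fold lower (−0.52). Fgfbp3 is close to the 1 FPKM floor, where counting error weighs most. Ide and Fgfbp3 were each set beside protein-coding genes whose mean level lay within 2-fold of their own, the gene itself counted. Of 3223 such genes 5 were as far or farther in the same direction as Ide (0.155%), and of 3144 such genes 39 as Fgfbp3 (1.24%). The set was chosen after values of some members in these libraries were seen, so such shares here and below are no test.

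Fgfbp3 and Ide are separated by 349 kb, and 2 measured genes lie between them. Btaf1, a TATA-binding-protein-associated ATPase gene that starts 6.46 kb from the start of Fgfbp3, stood at 7.72 FPKM in Per2def and 8.05 FPKM in Per2wt (−0.05). A330032B11Rik, a gene of no assigned role, stood at 5.30 FPKM in Per2def and 6.30 FPKM in Per2wt (−0.21). The differences of Fgfbp3 and Ide were larger than those of both genes in the interval they enclose. Fgfbp3 and Ide belong to the set chosen after some values were seen, so this is a description and no test.

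Beyond Ide, the mitotic motor gene Kif11 stood at 8.76 FPKM in Per2def and 10.7 FPKM in Per2wt (−0.26). Hhex, a homeobox gene used in blood progenitors, stood at 21.7 FPKM in Per2def and 20.98 FPKM in Per2wt (0.05). Exoc6, which encodes an exocyst subunit, went the other way, at 15.1 FPKM in Per2def and 11.9 FPKM in Per2wt (0.31). On the far side of Fgfbp3, the tankyrase gene Tnks2 stood at 8.33 FPKM in Per2def and 7.69 FPKM in Per2wt (0.10), and Pcgf5, a Polycomb gene, at 8.999 FPKM in Per2def and 10.1 FPKM in Per2wt (−0.15). None of these 5 flanking genes reached a 1.5-fold difference. On the log2(FPKM + 1) scale only 2.61% of all measured genes were higher and 1.7% lower by as much, so nothing is read from this count.

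**Figure D2:**
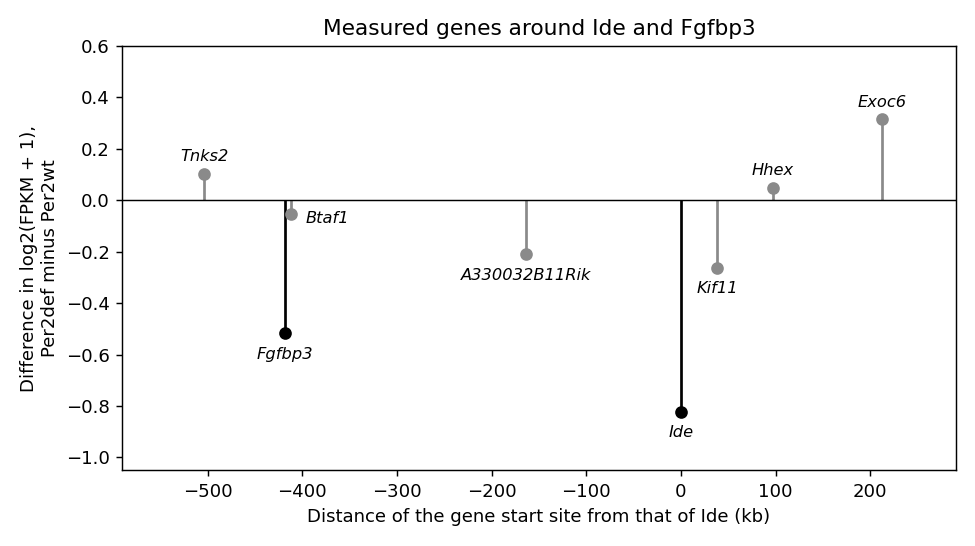
Difference in log2(FPKM + 1), Per2def minus Per2wt, of the measured genes within 500 kb of Ide (vertical axis) against the distance of each gene's start site from that of Ide in kb (horizontal axis), with Ide and Fgfbp3 in black and other genes in grey, 1 library per genotype. Ide at −0.82 and Fgfbp3 at −0.52 lie lowest, Btaf1 beside Fgfbp3 lies at −0.05, and Exoc6 lies highest at 0.31.

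The family of Ide was not lower as a group. All 6 listed members of the M16 peptidase family, to which Ide belongs, were measured, and 5 were higher in Per2def. Their median log2 difference was 0.14. Over all measured genes 6895 of 11121 were higher and the median was 0.05. Pitrm1, the mitochondrial presequence protease gene, stood at 19.7 FPKM in Per2def and 16.4 FPKM in Per2wt (0.25). The respiratory complex III core genes Uqcrc2 (0.17) and Uqcrc1 (−0.01) were the most abundant. For Fgfbp3, of 6 listed binding protein and receptor genes 2 were measured. Fgfr1, an FGF receptor gene, stood at 1.05 FPKM in Per2def and 0.516 FPKM in Per2wt (0.43), and Fgfrl1, a decoy-like receptor gene, at 1.90 FPKM in Per2def and 1.72 FPKM in Per2wt (0.09). Fgfbp1, Fgfr2 and Fgfr4 were listed at 0 in both. The 3 genes of 5 FPKM or more whose pair of values lay closest to that of Ide were the histone gene Hist1h4f, the small RNA row Mir8091 and the serpin gene Serpina3g. Their Euclidean distances were 0.175, 0.189 and 0.199 over only 2 libraries. None of the 3 is among the measured neighbours of Ide. A likeness over 2 libraries describes only that their values are close.

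Nnt showed the largest difference towards Per2def. The gene (ENSMUSG00000025453.18, chromosome 13, 119335448 to 119408997, minus strand) stood at 12.0 FPKM in Per2def and 6.49 FPKM in Per2wt, 1.85-fold higher (log2 difference 0.80). Of 4425 protein-coding genes of like level, Nnt counted, 17 were as far or farther in that direction (0.384%). The GRCm38 genome comes from C57BL/6J. Its principal GENCODE model of Nnt has 17 exons and 835 codons, and reads from exons that this genome lacks could not be counted. GENCODE M21 holds a second, overlapping entry under the same symbol, while the deposited tables hold 1 row, so the row cannot be split into forms of the transcript. Whether the full or the shortened Nnt was present in either library was not tested, because gene-level FPKM do not resolve exons.

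The 4 measured neighbours of Nnt within 500 kb did not reach 1.5-fold (median 0.13), beside 2.61% higher and 1.7% lower over all measured genes. Hmgcs1, a sterol synthesis gene, stood at 4.11 FPKM in Per2def and 5.09 FPKM in Per2wt (−0.25). 4833420G17Rik stood at 13.1 FPKM in Per2def and 11.5 FPKM in Per2wt (0.18). Of 17 listed genes of mitochondrial NADPH supply and peroxide handling 15 were measured. A total of 11 were higher in Per2def and 4 lower, with a median of 0.10. Over all measured genes 6895 of 11121 were higher and the median was 0.05. None of the list reached 1.5-fold on the log2(FPKM + 1) scale, beside the same shares of all measured genes, 2.61% and 1.7%. Txnrd2, the mitochondrial thioredoxin reductase gene, stood at 8.82 FPKM in Per2def and 5.76 FPKM in Per2wt (0.54). Nadk2, the mitochondrial NAD kinase gene, stood at 18.2 FPKM in Per2def and 12.6 FPKM in Per2wt (0.50). The peroxidase genes Gpx1 (−0.10) and Gpx4 (−0.03), the most abundant of the list, differed by less.

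Wdfy1, on the chromosome of Per2, was also higher in Per2def. It lies (ENSMUSG00000073643.11, chromosome 1, 79702262 to 79776143, minus strand) 11.6 Mb from Per2. Its level was 7.75 FPKM in Per2def and 4.78 FPKM in Per2wt, 1.62-fold higher (0.60). Of 4749 protein-coding genes of like level 32 were as far or farther in that direction (0.674%), with Wdfy1, Nnt and Per2 among them. The start of Wdfy1 overlaps that of Mrpl44, a mitochondrial ribosome gene on the other strand, by 126 bases. Mrpl44 stood at 9.91 FPKM in Per2def and 11.3 FPKM in Per2wt (−0.18). Serpine2, a protease inhibitor gene next to them, stood at 1.12 FPKM in Per2def and 0.541 FPKM in Per2wt (0.46). Ap1s3 and Cul3, the other 2 measured neighbours, differed by −0.03 and 0.17. Wdfy1 lies outside the window of 10 Mb around Per2. The 70 measured genes in that window had a median of 0.08, with 51 higher in Per2def, against a median of 0.05 and 6895 of 11121 higher over all measured genes. The share of the region around the Per2 allele in the Wdfy1 value was not tested.

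The family and pathway of Wdfy1 had no common direction. Of 10 listed genes 8 were measured, 4 higher and 4 lower, with a median of −0.03, where 6895 of the 11121 measured genes were higher. Ticam2, the gene of the TRIF-related adaptor TRAM, stood at 3.12 FPKM in Per2def and 2.50 FPKM in Per2wt (0.23). Ticam1, which encodes TRIF, stood at 1.75 FPKM in Per2def and 2.14 FPKM in Per2wt (−0.19). Irf3, the transcription factor gene downstream of TRIF, stood at 12.3 FPKM in Per2def and 14.1 FPKM in Per2wt (−0.18). Wdfy4, a family member, stood at 13.2 FPKM in both libraries. The receptor genes Tlr3 and Tlr4 were under 1 FPKM in both.

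Entpd4 was lower in Per2def, and its rows call for care. The tables hold 2 rows of this symbol with the same value in each library, 3.08 FPKM per row in Per2def and 5.32 FPKM per row in Per2wt. Summed, they give 6.16 FPKM in Per2def and 10.6 FPKM in Per2wt, 1.73-fold lower (log2 difference −0.70). The plain ratio is the same for 1 row, so the sum changes the level and not the fold. GRCm38 holds Entpd4 (ENSMUSG00000095463.8, chromosome 14, 69337174 to 69367270, plus strand) and a second gene, Entpd4b, on the same chromosome, and reads shared between such copies cannot be placed. Of 262 symbols with several rows 19 had this pattern of 1 repeated value above 0 in both libraries. Of 4575 protein-coding genes of like level 12 were as far or farther in the same direction as the summed value (0.262%), with Entpd4 and Ide among them.

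Around Entpd4, 6 measured neighbours had a median of −0.07 and none reached 1.5-fold, beside 2.61% higher and 1.7% lower over all measured genes. Loxl2, a lysyl oxidase gene, stood at 2.01 FPKM in Per2def and 2.72 FPKM in Per2wt (−0.31). Tnfrsf10b, a death receptor gene, stood at 6.14 FPKM in Per2def and 4.86 FPKM in Per2wt (0.29). The enzyme family of Entpd4 held 1 gene past 1.5-fold, Entpd1, beside 2.61% of all measured genes higher by as much. Of 7 listed Entpd genes 4 were measured, 3 of them higher in Per2def (median 0.15), where 6895 of the 11121 measured genes were higher. Entpd1, the gene of the cell surface ectonucleotidase CD39, stood at 2.40 FPKM in Per2def and 0.949 FPKM in Per2wt (0.80). Entpd5 stood at 5.88 FPKM in Per2def and 5.24 FPKM in Per2wt (0.14), and Entpd6 at 5.88 FPKM in Per2def and 5.18 FPKM in Per2wt (0.16).

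**Figure D3:**
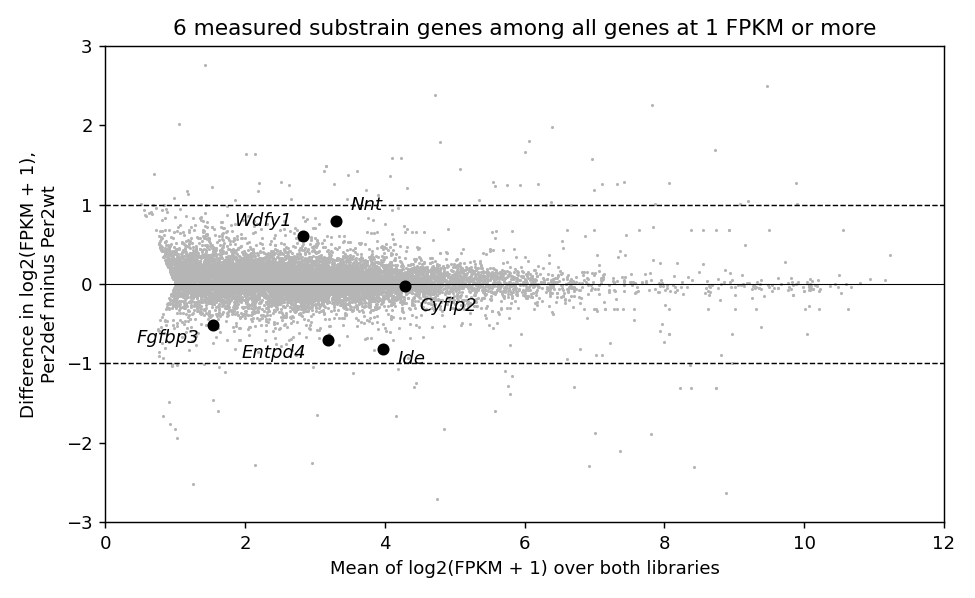
Difference in log2(FPKM + 1), Per2def minus Per2wt (vertical axis), against the mean of log2(FPKM + 1) over both libraries (horizontal axis) for measured genes (grey) and the 6 measured substrain genes (black), with dashed lines at 2-fold and 154 genes beyond the axes not drawn. Nnt (0.80), Wdfy1 (0.60), Entpd4 (−0.70) and Ide (−0.82) lie at the margin of the cloud inside the 2-fold lines, Fgfbp3 (−0.52) lies among the low genes, and Cyfip2 (−0.03) lies in the middle.

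The 3 genes known for coding variants were either close in level or almost undetected. Cyfip2 (ENSMUSG00000020340.16, chromosome 11, 46193850 to 46312859, minus strand) stood at 18.3 FPKM in Per2def and 18.7 FPKM in Per2wt, 1.02-fold lower (−0.03). Nlrp12 (ENSMUSG00000078817.4, chromosome 7, 3218784 to 3249740, minus strand) was listed at 0 in Per2def and at 0.0633 FPKM in Per2wt. Crb1 (ENSMUSG00000063681.14, chromosome 1, 139197056 to 139377100, minus strand) was listed at 0 in both, 47.7 Mb from Per2. At these levels a difference was not detectable.

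The sites of 2 coding variants are shown because levels cannot reveal them. They are read from GENCODE M21 transcripts of the C57BL/6J reference, 30 bases on either side of the codon in capitals, 5′ to 3′ on the minus strand of the genome, where both genes lie.
Cyfip2: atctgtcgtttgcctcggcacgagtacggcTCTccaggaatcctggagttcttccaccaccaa
Nlrp12: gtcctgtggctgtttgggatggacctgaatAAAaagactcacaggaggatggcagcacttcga
The Cyfip2 codon (chromosome 11, 46222614 to 46222616, exon 25 of 31) reads tct, a serine codon, in the reference, and it is the site of the missense change known in C57BL/6N. The Nlrp12 codon (chromosome 7, 3222536 to 3222538, exon 10 of 10) reads aaa, a lysine codon, and the reference there carries the form known for C57BL/6J. The deposited values hold no base calls, so which form either library carried was not tested, and Nlrp12 had almost no RNA to read.

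The partners of Cyfip2, like Cyfip2 itself, were close in level between the libraries. Of 14 listed genes of the WAVE complex, the Rac GTPases and the FMRP family 12 were measured, 9 higher and 3 lower. Over all measured genes 6895 of 11121 were higher. The median of the list was 0.04, which turned to −0.01 with libraries scaled by the median of ratios. Fmr1, the fragile X protein gene, stood at 8.81 FPKM in Per2def and 6.73 FPKM in Per2wt (0.34). Nckap1 stood at 1.96 FPKM in Per2def and 1.43 FPKM in Per2wt (0.29), while its blood cell relative Nckap1l, outside the rule for named genes and chosen after its values were seen, stood at 20.0 FPKM in Per2def and 19.8 FPKM in Per2wt (0.01). Brk1, a small WAVE subunit gene, stood at 33.2 FPKM in Per2def and 39.3 FPKM in Per2wt (−0.24), and the GTPase gene Rac1 at 32.1 FPKM in Per2def and 34.6 FPKM in Per2wt (−0.10). Of 5 measured neighbours of Cyfip2 the widest differences were in Med7 (0.26), a Mediator gene, and Lsm11 (−0.09).

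Nlrp12 was not the only gene of its family under 1 FPKM in both libraries. The relatives Nlrp3, Nlrp6, Nlrp10 and Nlrc4 were under it too, while the listed inflammasome and signalling partners reached it. Of 15 listed NLR and inflammasome genes 11 were measured, 7 higher and 4 lower, where 6895 of the 11121 measured genes were higher. The median of the list was 0.04, which turned to −0.01 with the same scaling. Nlrp1b, an inflammasome sensor gene, stood at 1.30 FPKM in Per2def and 0.182 FPKM in Per2wt (0.96). Nlrp1a, its near copy, stood at 1.00 FPKM in Per2def and 1.63 FPKM in Per2wt (−0.39), and reads shared between the copies make this split uncertain. Nlrc5, a regulator gene of MHC class I, stood at 3.45 FPKM in Per2def and 5.55 FPKM in Per2wt (−0.56). The signalling genes Irak1 (0.04) and Pycard (0.00) were the most abundant by the mean of both libraries, though Pycard did not rank next to Irak1 in Per2def. Near Nlrp12, 11 genes were measured with a median of −0.05, and the widest differences were in the small RNA row Mir3572, listed at 39.3 FPKM in Per2def and 0 in Per2wt, and in Leng1 (0.32). Division by so short a length gives a high FPKM from few reads, so this value is uncertain.

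Some partners of Crb1 reached 1 FPKM, while Crb1 was listed at 0. Of 12 listed Crumbs and Par complex genes 6 were measured, 4 higher and 2 lower, with a median of 0.10. Over all measured genes 6895 of 11121 were higher. Pard6g stood at 2.00 FPKM in Per2def and 1.41 FPKM in Per2wt (0.32). The kinase gene Prkci stood at 2.20 FPKM in Per2def and 2.98 FPKM in Per2wt (−0.32), and Lin7c was the most abundant at 7.31 FPKM in Per2def and 6.68 FPKM in Per2wt (0.11). Crb2 and Crb3, the relatives of Crb1, were under 1 FPKM in both. Of the 5 measured neighbours of Crb1, 2 genes of no assigned role passed 1.5-fold, beside 2.61% of all measured genes higher by as much. 2310009B15Rik stood at 8.60 FPKM in Per2def and 4.51 FPKM in Per2wt (0.80), and 4930596I21Rik at 1.92 FPKM in Per2def and 0.510 FPKM in Per2wt (0.95). The other 3 neighbours differed by −0.12 to 0.04.

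**Figure D4:**
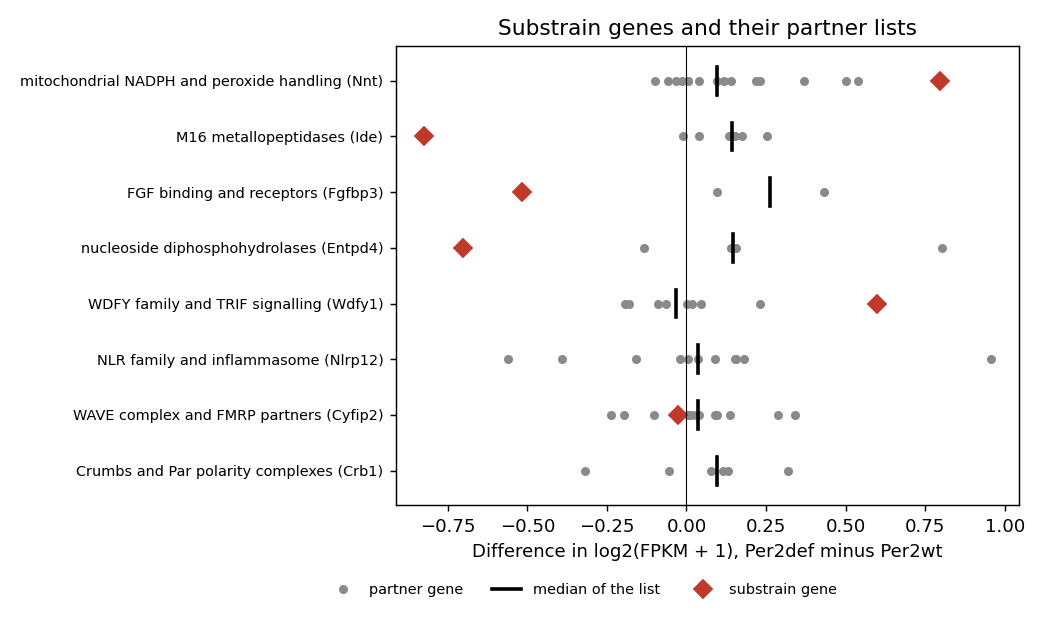
Difference in log2(FPKM + 1), Per2def minus Per2wt (horizontal axis), of each substrain gene (red diamond) and of the measured genes of its partner list (grey points, with a black bar at the median), 1 library per genotype; Nlrp12 and Crb1 were not measured and have no diamond. The diamonds of Nnt, Ide, Fgfbp3, Entpd4 and Wdfy1 lie away from the medians of their lists, which run from −0.03 to 0.26, and Cyfip2 lies at −0.03 beside a median of 0.04 (−0.01 under median-of-ratios scaling).

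Other genes known to vary among C57BL/6 lines were close in level where measured. Mmrn1, a platelet protein gene missing from C57BL/6JOlaHsd mice, stood at 2.08 FPKM in Per2def and 2.05 FPKM in Per2wt (0.01). Dock2, a Rac activator gene altered in some C57BL/6N colonies, stood at 17.8 FPKM in Per2def and 17.2 FPKM in Per2wt (0.05). Gabra2, a GABA receptor gene with a C57BL/6J variant, was under 1 FPKM in both.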

How the data were processed

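RNA was measured in 2 libraries, 1 labelled Per2def and 1 labelled Per2wt, grouped by the genotype label. The authors deposited FPKM per gene, as the file headers name them. The submitters' processing notes list CASAVA 1.8, TopHat, Bowtie2 and Cufflinks with the builds GRCm38 and mm10. The annotation, the read filters and the other versions are named by none of the sources used. Libraries were made with a strand-marking kit, per the labels' protocols, but the strand setting of the counting is not given, so overlapping genes on opposite strands may share reads.

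From 24487 rows per file, 9 rows marked as holding too much data and 27 rows with symbols turned into dates were left out, and rows sharing a symbol were summed. Differences are Per2def minus Per2wt in log2(FPKM + 1), where changes of low genes come out too small, and folds are plain FPKM ratios. A gene counted as measured when either library reached 1 FPKM. Genes were placed by symbol with GENCODE M21 (22660 of 23961 symbols), and windows of 500 kb around members and 10 Mb around Per2 were used. Genes of like level are protein-coding genes whose mean FPKM lay within 2-fold of that of the member, the member itself included. No test is possible with 1 library per genotype. Named genes are the 8 members, Per2, other substrain genes, the 2 widest and 2 most abundant of each of 8 partner lists, every measured neighbour of Ide and Fgfbp3, the 2 widest neighbours of each other member and the 3 genes closest to Ide. Genes named beyond this rule (Ap1s3, Cul3, Nckap1l, Nlrp1a, Mir6236, the low or unlisted relatives and the markers) were chosen after their values were seen. Single values of 2 listed genes are not reported here. The members and lists were chosen with earlier results of these data known. Alternatives covered the pseudocount, library scaling, the floor, the fold threshold and the highest row per symbol. The fold counting was run on simulated data with planted changes larger than those of the members, in genes at 5 FPKM or more. That run checks the counting alone and says nothing of the error of the values reported here. Analyses used Python 3.11.15 with pandas 2.3.3.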

Additional observations from a re-analysis of the deposited data

How the results depend on the processing

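The 5 members apart between the libraries kept their direction under pseudocounts of 0.1 and 0.5 FPKM, 3 library scalings and the highest row per symbol. That outcome was fixed in advance, since a pseudocount cannot change a sign and each member has 1 row or equal rows. The scalings multiplied Per2def by 0.963 to 0.999, too little to turn these folds. Nothing is read from the kept direction of these 5 members. Their log2 differences ran from 0.75 to 0.88 for Nnt, 0.55 to 0.69 for Wdfy1, −0.87 to −0.82 for Ide, −0.78 to −0.63 for Entpd4 and −0.75 to −0.52 for Fgfbp3. The scalings moved the median of all genes by at most 0.05. One of them set the FPKM totals equal, and the small RNA row Mir6236 made up 71.5% of the total in Per2def and 71.3% in Per2wt. Lowering the fold threshold to 1.5 raised the members past it to 2 higher and 2 lower, and all genes to 290 higher and 189 lower. At 2-fold, a pseudocount of 0.1 FPKM gave 217 higher genes among all measured, and without small and predicted RNAs 26 were higher and 16 lower. Scaling by the median of ratios turned the medians of the NLR list to −0.0149 and of the WAVE list to −0.00992, both close to 0, and the cause was not tested. Of 108 values of single genes and list medians under alternatives, 102 moved by less than 0.177 on the log2 scale, a measure of the spread of differences over all measured genes, without changing sign, and the 4 that moved farther (Fgfbp3, Nlrp12, Per2 and the FGF list) did so at a pseudocount of 0.1 FPKM. The 108 values include some that a setting could not move, such as Crb1 at 0 and the highest row of genes with 1 row. Nothing was left out in turn and no paired analysis was possible because each genotype has 1 library. Nlrp12, Crb1 and other low genes are limited by depth, which is unknown, and all values by 1 library per genotype.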
